A study of Mus musculus with 15 samples.

Results

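The 10 genes described here are the S100 genes S100a4, S100a6, S100a10 and S100a11, the annexins Anxa1, Anxa2, Anxa5 and Anxa6, and the galectins Lgals1 and Lgals3, in mouse regulatory T cells (Tregs). They were taken by name from a table of 45706 genes. All 10 were found, and all 10 were among the 18423 genes with enough counts to be tested. Tregs are defined by the transcription factor Foxp3 and hold back immune responses. They were purified by sorting Foxp3-positive cells from adult C57BL/6 mice that carried a Foxp3 reporter, and their RNA was sequenced in bulk.

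The 15 libraries came from spleen, thymus and peritoneal cavity. Animals of the RelB-dDC line gave 7 libraries, and their littermate controls gave 8. There were 3 control and 3 RelB-dDC libraries of spleen, 3 and 2 of thymus, and 2 of each of peritoneal cavity. Every group shared the C57BL/6 strain and the reporter, and no treatment was given in the labels beyond the sort. The labels do not spell out the line's name, the driver of the deletion or the age beyond adult. The line is read here as lacking RelB, an NF-kappaB subunit, in dendritic cells, and is called dDC below. Since the sorted Tregs are not the cells named in the line, the Relb level in these libraries does not check the genotype. Nothing in the labels says that each library came from its own mouse, so p-values measure the spread between libraries, which may be technical in part.

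S100 proteins are small proteins with paired EF-hands that mostly act as dimers. Most of them, though not all, bind calcium and change shape on binding so that they can grip partner proteins. Annexins are calcium-dependent binders of negatively charged phospholipids that work at the inner face of membranes, and several of them are S100 partners: S100A10 forms a tetramer with annexin A2, and S100A11 binds annexin A1. Galectins are lectins that bind beta-galactosides on glycoproteins. In T cells, S100a4, S100a6, S100a10, S100a11, Anxa1, Anxa2 and Lgals1 are commonly found at higher levels in activated and tissue-homing cells than in naive ones.

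The level assigned to S100a11 depends on how reads were divided among near-identical copies, and its coding sequence is therefore shown first. S100a11 lies on chromosome 3, 93520488 to 93526287 on the plus strand (mm10, as all positions here). A search of the annotated transcripts with those of S100a11 found several processed pseudogenes. Gm13640, Gm29240 and S100a11-ps were 90.6% to 93.7% identical over the matched stretch and had at most 13 reads in any library. The other 2 have the same length as the coding stretch of S100a11, 297 bases. Gm12854, on chromosome 4 from 116067268 to 116067564 on the plus strand, differs from it at 3 bases (T240C, G241A and C289T, counted from the first base of the start codon, with the base of S100a11 first), an identity of 99.0%. Gm7665 differs at 4 bases, an identity of 98.7%. Capitals mark the bases at which Gm12854 departs from S100a11:
S100a11: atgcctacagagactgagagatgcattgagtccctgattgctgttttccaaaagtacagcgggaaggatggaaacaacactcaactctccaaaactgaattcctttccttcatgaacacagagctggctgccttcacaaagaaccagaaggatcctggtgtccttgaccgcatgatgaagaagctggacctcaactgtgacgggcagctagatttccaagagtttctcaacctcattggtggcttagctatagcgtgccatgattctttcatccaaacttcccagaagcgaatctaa
Gm12854: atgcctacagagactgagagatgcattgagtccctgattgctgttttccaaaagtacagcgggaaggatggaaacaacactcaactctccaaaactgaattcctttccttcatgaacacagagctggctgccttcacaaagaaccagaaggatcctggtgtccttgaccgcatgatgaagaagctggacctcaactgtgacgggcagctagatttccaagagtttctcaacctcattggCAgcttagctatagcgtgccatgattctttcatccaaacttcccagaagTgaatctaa

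S100a11 received 1673 to 8361 reads a library, Gm12854 717 to 3518 and Gm7665 93 to 495. Both pseudogenes together held between 30.2% and 34.1% of the pooled reads in every library, so the division was nearly constant over tissues and genotypes. The sources used here do not say whether reads that match several places were counted. The level of S100a11 alone is therefore uncertain by the reads assigned to the copies, and its differences are given below alone and with the copies added.

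**Figure D1:**
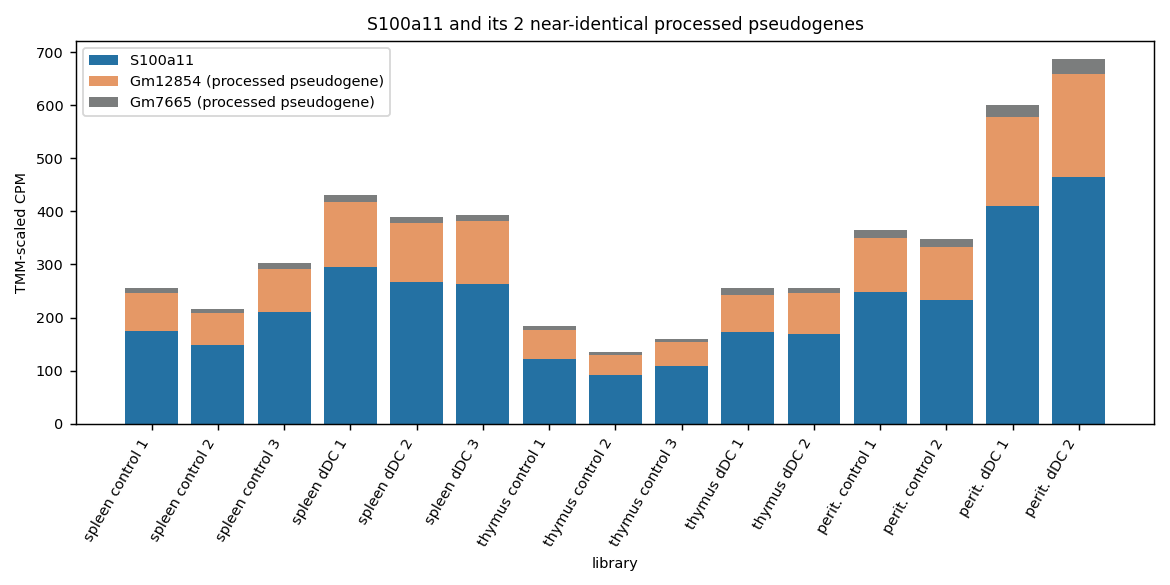
CPM (read counts scaled to a common library total, with edgeR's TMM factors) of S100a11 (blue), Gm12854 (orange) and Gm7665 (grey) stacked for each of the 15 libraries. The copies take 30.2% to 34.1% of each stack, and the stacks of dDC libraries are higher than those of the controls of the same tissue.

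The 4 S100 genes all lie on chromosome 3, in the cluster that holds most S100 genes. S100a4 (90603771 to 90606045) and S100a6 (90612882 to 90624181) are 6.84 kb apart, with 1 annotated gene between them. S100a11 and S100a10 (93555080 to 93564643) are 28.8 kb apart, also with 1 gene between them, and 113 genes lie between S100a6 and S100a11. All 4 are on the plus strand. The 250 bases before the start were read from a RefSeq table (GRCm38.p6, the assembly of mm10), which holds 7 of the 10 genes. Those of the S100 genes present in it are shown because S100a4 and S100a11 carried the largest estimates of the dDC comparison. Capitals mark matches, on either strand, to the AP-1 site TGANTCA, the GC box GGGCGG, the CCAAT box, the TATA box TATAAA and the RUNX site TGTGGT, and no match overlapped another.
S100a4, chr3:90603520-90603769, plus strand: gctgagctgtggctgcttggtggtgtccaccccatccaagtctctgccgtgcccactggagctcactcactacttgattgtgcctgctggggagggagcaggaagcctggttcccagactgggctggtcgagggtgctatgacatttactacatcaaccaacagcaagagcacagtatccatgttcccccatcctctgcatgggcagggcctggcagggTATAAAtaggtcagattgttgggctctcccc
S100a6, chr3:90612644-90612893, plus strand: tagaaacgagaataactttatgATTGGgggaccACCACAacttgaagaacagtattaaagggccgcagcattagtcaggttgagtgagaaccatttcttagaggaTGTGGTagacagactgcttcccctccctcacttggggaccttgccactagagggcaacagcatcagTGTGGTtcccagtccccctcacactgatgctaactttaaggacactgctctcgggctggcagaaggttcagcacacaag
S100a11, chr3:93520246-93520495, plus strand: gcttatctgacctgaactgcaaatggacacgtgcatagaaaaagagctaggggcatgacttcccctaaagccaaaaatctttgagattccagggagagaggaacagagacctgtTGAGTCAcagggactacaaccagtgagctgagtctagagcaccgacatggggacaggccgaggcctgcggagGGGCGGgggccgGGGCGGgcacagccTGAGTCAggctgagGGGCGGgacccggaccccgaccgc

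The window of S100a4 held 1 TATA box and no other match. The window of S100a6 held 3 RUNX matches and 1 CCAAT match. The window of S100a11 held 2 AP-1 matches and 3 GC boxes, and Anxa2 was the only other gene of the 7 with an AP-1 match. Of 32536 mouse promoter windows of this length, 6.73% held an AP-1 match, 33.0% a GC box, 33.8% CCAAT, 12.3% a TATA box and 14% a RUNX match. The neighbouring S100a4 and S100a6 thus shared none of these matches with each other or with S100a11. A match is a run of letters and was not tested as a binding site.

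Total counts lay between 15714286 and 24332044 a library. None of 7 Treg markers was at 0 in any library, and their summed level was 4039 to 6317 CPM. In peritoneal cavity that sum was higher in both dDC libraries (6000 and 5104 CPM) than in both controls (4549 and 4039 CPM). Cd3e, Ikzf2, Ctla4 and Tnfrsf18 were higher in both, while Cd4, Foxp3 and Il2ra overlapped. Foxp3 was at 254.5 and 320 CPM in the peritoneal controls and at 260.9 and 199.2 CPM in the dDC libraries. Il2ra was at 391.7 and 550.4 CPM and at 421 and 361.9 CPM. Markers of other cells were present as well. Of the lists, B cell markers reached 2250 CPM (peritoneal cavity) and erythroid markers 8056 CPM (spleen). In controls the 8 B cell markers summed to 1084 to 2117 CPM in peritoneal cavity, 344.9 to 1005 CPM in spleen and 42.9 to 70.4 CPM in thymus. The peritoneal control library 2 stood apart: its 11 macrophage and monocyte markers summed to 1586 CPM, against 58.6 CPM in the other peritoneal control and 138 to 239.6 CPM in the peritoneal dDC libraries. Of the 11 markers, 1 (Fcgr1) was at 0 in peritoneal control library 2 and 6 were at 0 in the other. Lyz2 alone was at 1187 CPM in library 2. The departure was not limited to macrophage markers. Its dendritic cell markers summed to 215.3 CPM, against 20.2 CPM in the other control and 27.65 and 43.8 CPM in the dDC libraries. Its B cell markers summed to 2117 CPM, against 1084 CPM in the other control and 1302 and 2250 CPM in the dDC libraries. In spleen, 7 dendritic cell markers summed to 12.8 to 18.4 CPM in controls and 25.5 to 35.9 CPM in dDC libraries, and 4 NK cell markers to 12.5 to 21 CPM and 22.5 to 25.3 CPM. In thymus the macrophage markers summed to 4.25 to 26.7 CPM in controls and 3.68 to 4.27 CPM in dDC libraries, and 8 erythroid markers to 3.16 to 398.5 CPM and 0.884 to 1.75 CPM. In bulk RNA, a different number of cells of one type and a different amount of RNA per cell cannot be told apart.

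S100a10, S100a11, Lgals1 and Anxa6 were the abundant members. Per length of exon (RPKM, reads scaled to gene length and library size), the spleen control means were 372 for S100a10, 348 for S100a11, 276 for Lgals1 and 265 for Anxa6, which placed them at ranks 164, 171, 227 and 239 of the 18423 tested genes. Anxa5 followed with 106 RPKM, S100a6 with 81.8, Anxa2 with 20.1, S100a4 with 13.4, Lgals3 with 5.85 and Anxa1 with 3.63. In the peritoneal dDC group S100a10 ranked 58, S100a11 65 and Lgals1 81. The S100a4 level may be too low, since 302 of its 584 exon bases (51.7%) also belong to the same-strand gene Gm42674, which had 0 reads in every library. The summed level of the 10 genes was 1799 to 2372 CPM in spleen controls and 2413 to 2625 CPM in spleen dDC libraries. It was 1648 to 1889 and 2159 to 2182 CPM in thymus, and 2547 to 2582 and 3692 to 4491 CPM in peritoneal cavity. The ranges of the genotypes did not overlap in any tissue. Among single tested genes, 4.94% in spleen, 9.06% in thymus and 18.7% in peritoneal cavity had every dDC library above every control. The sum weighs the abundant members most and adds no separate evidence to their own levels.

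**Figure D2:**
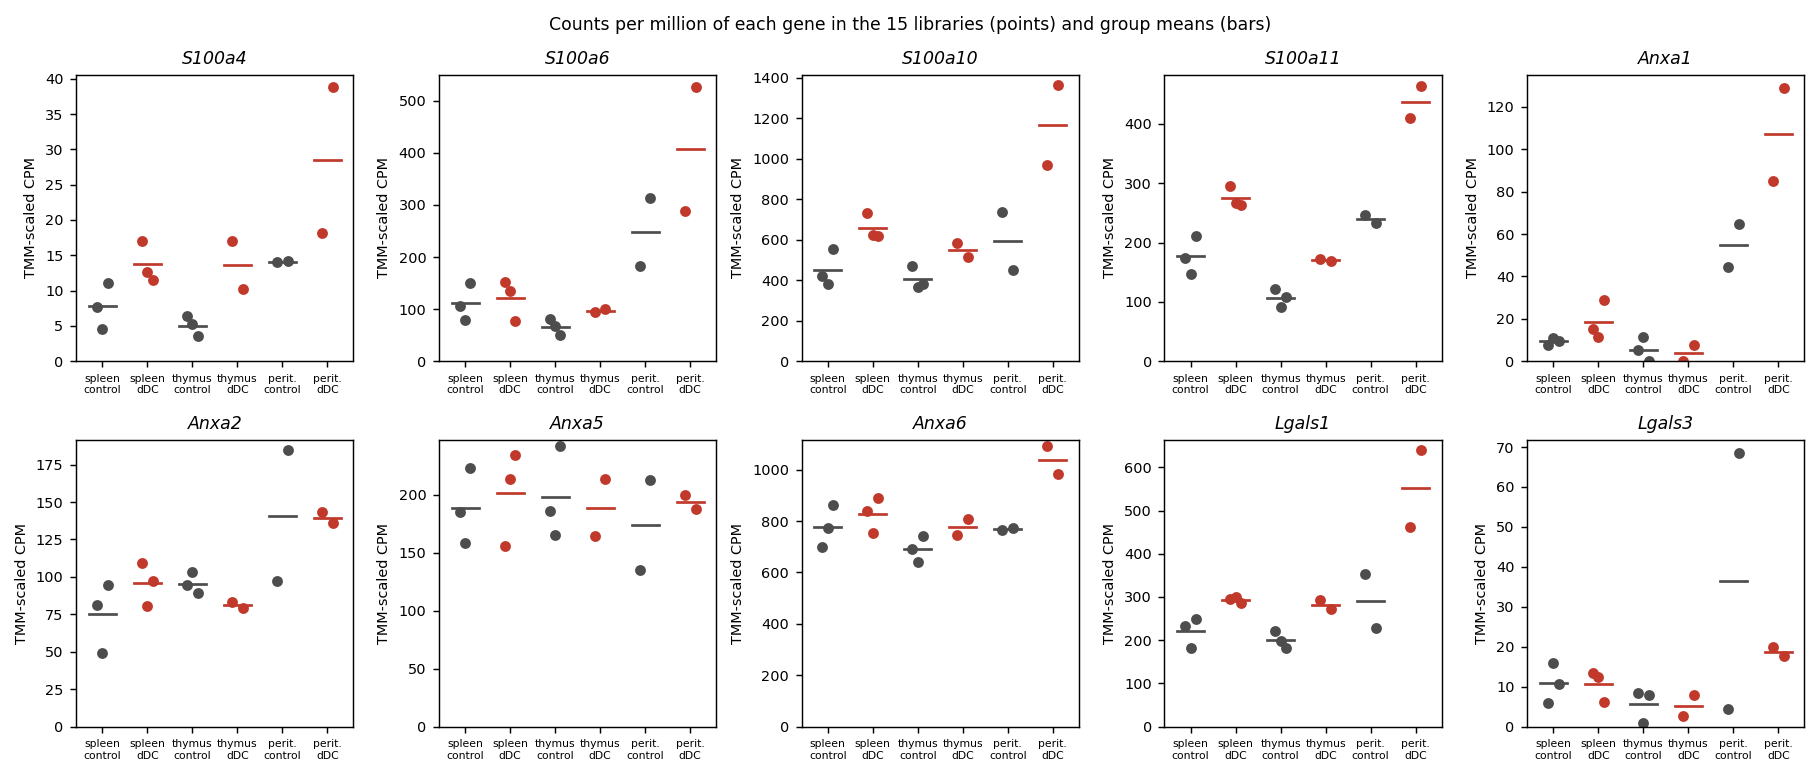
Level of each of the 10 genes in CPM (linear axes from 0) in every library, with controls in grey and dDC libraries in red, and bars at the group means. S100a4, S100a10, S100a11 and Lgals1 have every dDC point above every control point of the same tissue, and Lgals3 has 1 peritoneal control at 68.4 CPM.

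The comparison of dDC with control, averaged over the 3 tissues, takes the mean of the 3 tissue differences, which a single tissue can carry. One of the 10 genes passed the test (edgeR's quasi-likelihood test, Benjamini-Hochberg adjusted over all tested genes, threshold 0.05): S100a11 was higher in dDC Tregs. Over all tested genes, 0.076% passed in either direction (9 higher and 5 lower), and 0.119% with limma-voom. DESeq2 called 5 of the 10 genes, beside 2.5% of the 15349 genes to which it gave an adjusted p. Of the 10 edgeR estimates 9 were positive, with a median log2 difference of 0.465, and 5 had an unadjusted p under 0.05. Over all tested genes 47.9% of the estimates were positive, with a median of -0.0197, and 9.31% had an unadjusted p under 0.05. The genes were chosen with results of these data known, so these counts describe them and carry no separate evidence.

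S100a11 was at 175, 148 and 211 CPM in the spleen controls and at 296, 266 and 264 CPM in the spleen dDC libraries. In thymus it was at 121, 91.2 and 109 CPM in controls and at 172 and 169 CPM in dDC libraries. In peritoneal cavity it was at 247 and 234 CPM in controls and at 409 and 464.5 CPM in dDC libraries. The genotypes did not overlap in any tissue. The averaged log2 difference was 0.72 (SE 0.09, 95% interval 0.53 to 0.92), a fold of 1.65, with an adjusted p of 0.0132 in edgeR. With the reads of Gm12854 and Gm7665 added, an alternative chosen after seeing the data, it was 0.73 (SE 0.09, adjusted p = 0.009 in edgeR). Gm12854 on its own was another of the 14 genes that passed (0.74, SE 0.10, adjusted p = 0.0157), and it is not independent of S100a11. The adjusted p of S100a11 was 0.0529 without spleen dDC library 1, 0.0659 without peritoneal control library 2 and 0.0948 without peritoneal dDC library 2. The average of the spleen and thymus differences alone was 0.65, with an adjusted p of 0.172 in edgeR. That fit still used all 15 libraries, so the peritoneal ones entered the estimate of the spread.

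S100a10, the partner of annexin A2 that carries channels and receptors to the cell surface, had the highest level of the S100 genes. It was at 421, 380.2 and 552 CPM in spleen controls and at 729, 625 and 619 CPM in spleen dDC libraries. In thymus it was at 472, 364 and 380.2 CPM in controls and at 585 and 516 CPM in dDC libraries, and in peritoneal cavity at 739 and 451 CPM and at 970.3 and 1365 CPM. Every dDC library was above every control of its tissue. The averaged log2 difference of 0.65 (SE 0.13, 95% interval 0.37 to 0.94) did not pass in edgeR (adjusted p = 0.131).

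Lgals1, which encodes galectin-1, a lectin secreted by Tregs and known as one of their effector molecules, had the same arrangement. Its levels were 232, 181 and 248 CPM in spleen controls and 295, 300.1 and 286 CPM in spleen dDC libraries. In thymus they were 222, 198 and 181 CPM in controls and 292 and 272 CPM in dDC libraries, and in peritoneal cavity 353 and 229 CPM against 463 and 641 CPM. No dDC library reached down to the controls of its tissue. The averaged log2 difference was 0.61 (SE 0.11, 95% interval 0.36 to 0.86), which did not pass in edgeR (adjusted p = 0.118). With 1 library left out, the averages of S100a10 and Lgals1 were highest without peritoneal control library 1, at 0.79 and 0.73. That fit leaves peritoneal control library 2, the one with the most macrophage marker RNA, as the only peritoneal control. Without library 2 instead, the averages were lowest, at 0.55 and 0.52.

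S100a4, a motility-linked S100 protein that binds non-muscle myosin, had the largest estimate and a low level. It was at 7.70, 4.625 and 11.1 CPM in spleen controls and at 16.99, 12.7 and 11.6 CPM in spleen dDC libraries. In thymus it was at 6.35, 5.235 and 3.56 CPM in controls and at 16.98 and 10.2 CPM in dDC libraries, and in peritoneal cavity at 13.99 and 14.25 CPM against 18.1 and 38.8 CPM. The ranges stayed apart in each tissue, narrowly so in spleen, where the highest control was at 11.1 CPM and the lowest dDC library at 11.6 CPM. The averaged log2 difference was 1.08 (SE 0.28, 95% interval 0.47 to 1.69) and did not pass in edgeR (adjusted p = 0.23). S100a6, a small dimeric S100 protein linked to growth, overlapped in spleen and peritoneal cavity. Its spleen controls were at 106, 79.6 and 149.7 CPM and the dDC libraries at 152, 135 and 77.45 CPM, and the peritoneal libraries at 183 and 313.5 CPM and at 288 and 527 CPM. In thymus both dDC libraries (94.2 and 99.4 CPM) lay above the controls (81.8, 66.7 and 51.3 CPM). Its averaged log2 difference was 0.46 (SE 0.21, adjusted p = 0.547 in edgeR).

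Among the annexins, Anxa6, the annexin with a doubled core that binds membranes and actin, had a small and tightly estimated difference. Its levels ran from 699 to 861 CPM in spleen controls and from 755 to 891 CPM in spleen dDC libraries, which overlapped. In peritoneal cavity the controls were at 766 and 775 CPM and the dDC libraries at 1094 and 985 CPM, and in thymus 642 to 740.4 CPM stood against 747 and 807 CPM. The averaged log2 difference was 0.23 (SE 0.06, 95% interval 0.09 to 0.37, adjusted p = 0.252 in edgeR). Anxa5, known for binding phosphatidylserine, gave 0.06 (95% interval -0.25 to 0.37), with levels from 135 to 242 CPM over all 15 libraries. Anxa2 gave 0.04 (95% interval -0.33 to 0.40). Neither interval reached the 0.72 estimated for S100a11.

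The levels of Anxa2 and its partner S100a10 were set side by side, with no test of their difference. In thymus both dDC libraries (83.5 and 79.0 CPM) lay below all 3 controls (94.6, 103 and 89.0 CPM) for Anxa2, whereas S100a10 lay above its controls. The share of all tested genes with every dDC library below every control was not counted. Per length, the ratio of S100a10 to Anxa2 was 10.9 to 15.4 in thymus controls and 20.1 to 21.6 in thymus dDC libraries. In spleen it was 16 to 23.8 in controls and 19.6 to 23.8 in dDC libraries, which overlapped. In peritoneal cavity the controls were at 7.52 and 23.4 and the dDC libraries at 20.8 and 30.9. The lowest value belonged to peritoneal control library 2, the library with the most macrophage marker RNA, and the part of those cells in it was not tested.

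Anxa1, the annexin known as a mediator of glucocorticoid action and of the end of inflammation, varied most among the annexins. It was at 7.53, 11.2 and 9.72 CPM in spleen controls and at 15.1, 11.4 and 28.8 CPM in spleen dDC libraries. In peritoneal cavity the controls were at 44.6 and 64.9 CPM and the dDC libraries at 85.1 and 129 CPM. In thymus the controls were at 5.145, 11.45 and 0 CPM and the dDC libraries at 0.219 and 7.51 CPM. Every dDC library lay above the controls in spleen and peritoneal cavity and the ranges overlapped in thymus. The averaged log2 difference of 0.47 had an SE of 0.73 (adjusted p = 0.948 in edgeR).

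Lgals3, which encodes galectin-3, a lectin abundant in macrophages, was the only member with a negative average (-0.37, SE 0.60, adjusted p = 0.956 in edgeR), and with limma-voom the sign turned (0.21). Its levels overlapped in every tissue: 5.82 to 16.02 CPM in spleen controls and 6.12 to 13.5 CPM in spleen dDC libraries, 0.818 to 8.32 CPM and 2.68 to 7.805 CPM in thymus. The peritoneal controls were at 4.40 and 68.4 CPM, and the dDC libraries at 19.8 and 17.7 CPM. The high library was peritoneal control 2, which had the highest macrophage and monocyte marker sum (1586 CPM), with 1187 CPM of Lyz2. Other markers of the list were not highest there. Csf1r and Adgre1 were at 64.6 and 31.6 CPM in it. They were at 74.35 and 46.8 CPM in spleen dDC library 2, where Lgals3 was at 12.4 CPM. The peritoneal log2 difference of Lgals3 was -0.95 with peritoneal control 2 and 2.09 without it, so 1 library decides its sign. The part of macrophage RNA in the Lgals3 level was not tested.

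**Figure D3:**
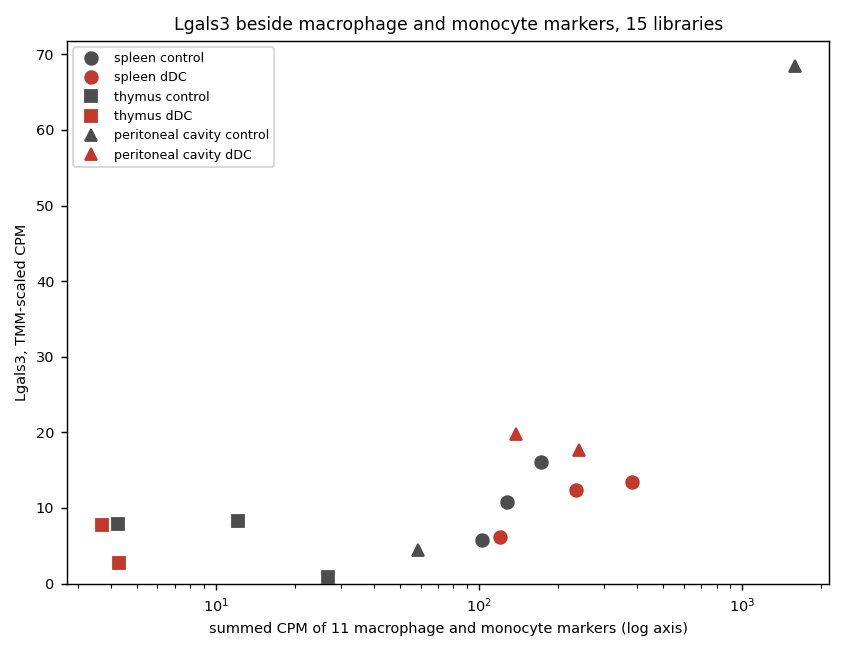
Lgals3 level (CPM, linear axis) against the summed CPM of 11 macrophage and monocyte markers (log axis) in the 15 libraries, with tissue as the symbol and genotype as the colour. One peritoneal control library lies apart at 68.4 CPM of Lgals3 and 1586 CPM of markers.

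Taken tissue by tissue, no member passed in edgeR, and few genes did: 0% of all tested genes in spleen, 0% in thymus and 0.00543% in peritoneal cavity. In spleen 3 members had an unadjusted p under 0.05, beside 4.27% of all tested genes. The summed dendritic cell and NK cell markers were low, and higher in every spleen dDC library than in every spleen control. Single markers of these lists, such as Klrb1c and Zbtb46, overlapped. The macrophage and monocyte markers summed to 380.3, 234.5 and 120.3 CPM in spleen dDC libraries 1, 2 and 3, against 102.5 to 172.9 CPM in controls. The part of these cells in the spleen differences was not tested. The lowest adjusted p belonged to S100a11 each time, at 0.885 in spleen, 0.547 in thymus and 0.222 in peritoneal cavity. The S100a11 log2 differences were 0.63, 0.67 and 0.86, those of S100a10 0.54, 0.44 and 0.97, those of Lgals1 0.41, 0.50 and 0.92, and those of S100a4 0.81, 1.43 and 1.01. Without peritoneal dDC library 2 the peritoneal difference of S100a4 was 0.36. With 1 library left out, the peritoneal differences of S100a10 and Lgals1 were lowest without peritoneal control 2, at 0.66 and 0.64. They were highest without peritoneal control 1, at 1.37 and 1.27. That of S100a11 ran from 0.77 to 0.95. The summed Treg markers were also higher in both peritoneal dDC libraries, though Foxp3, Il2ra and Cd4 overlapped. The part of these markers in the differences was not tested. In thymus 3 members had an unadjusted p under 0.05, beside 6.57% of all genes, and in peritoneal cavity 4, beside 6.36%. The member medians were 0.383 in spleen, 0.304 in thymus and 0.789 in peritoneal cavity, beside -0.0112, -0.0309 and 0 for all tested genes. limma-voom called no member in any of these (0%, 0% and 0.0543% of all genes). DESeq2 called S100a11 in each tissue, and S100a10 and Lgals1 also in peritoneal cavity. It called 0.176% of 18133 genes in spleen, 0.955% of 16024 in thymus and 1.26% of 15349 in peritoneal cavity. These are the genes to which it gave an adjusted p.

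Counting separation instead, every dDC library lay above every control for 5 members in spleen (S100a4, S100a10, S100a11, Anxa1 and Lgals1), where 4.94% of all tested genes did so. In thymus it was 6 members (S100a4, S100a6, S100a10, S100a11, Anxa6 and Lgals1) beside 9.06% of all genes, and in peritoneal cavity 6 (S100a4, S100a10, S100a11, Anxa1, Anxa6 and Lgals1) beside 18.7%. In all 3 tissues at once it was S100a4, S100a10, S100a11 and Lgals1, beside 0.331% of all tested genes (61 genes). Every dDC library lay below every control for 1 member in thymus (Anxa2) and for 0 in spleen and peritoneal cavity. That downward share was not counted over all tested genes. The peritoneal separation rests on 2 libraries a group.

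**Figure D4:**
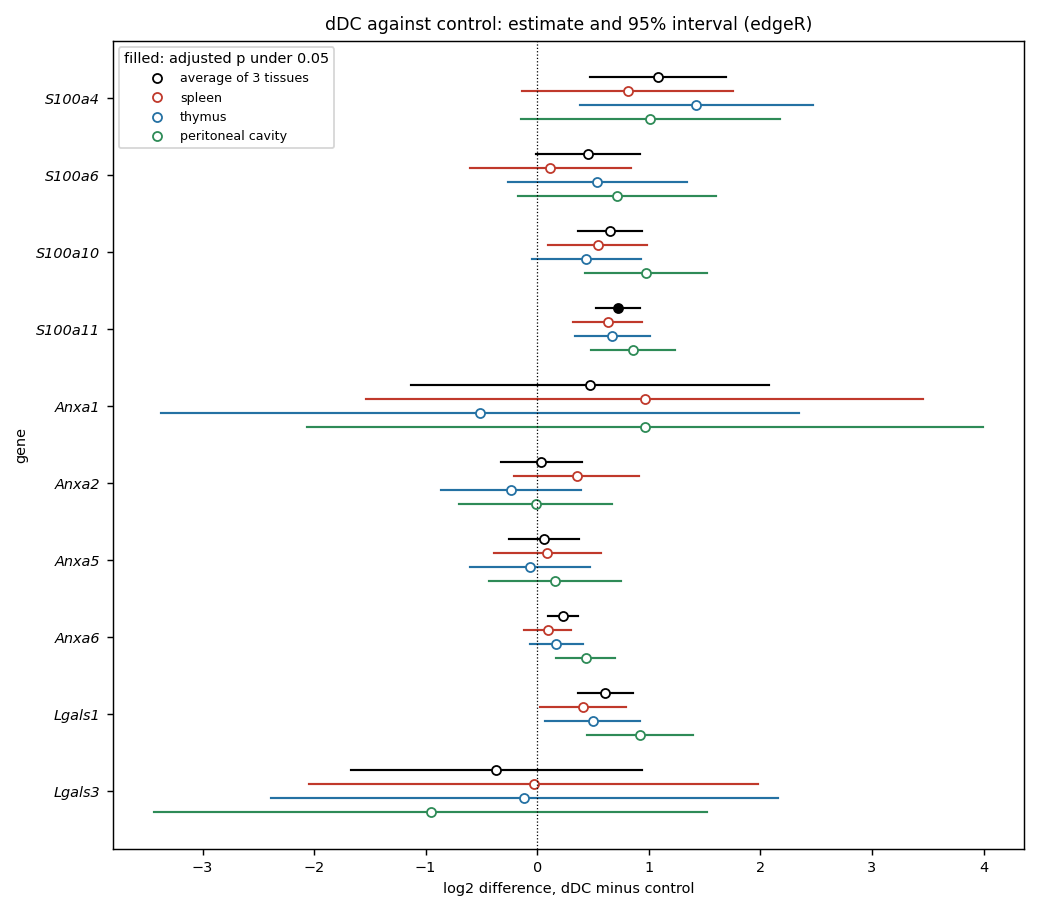
Estimated log2 difference (dDC minus control) with 95% interval for each gene, averaged over the 3 tissues (black) and in spleen (red), thymus (blue) and peritoneal cavity (green); a filled point marks an adjusted p under 0.05. The averaged S100a11 estimate of 0.72 is the only filled point, and Anxa1 and Lgals3 have the widest intervals.

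Whether the dDC difference itself varied between tissues was tested for each pair of tissues, and no gene of any kind passed in edgeR (0% for peritoneal cavity against spleen, 0% for thymus against spleen and 0% for peritoneal cavity against thymus). limma-voom and DESeq2 called no member either. The peritoneal estimate exceeded the spleen one for 8 of the 10 members, as it did for 52.2% of all tested genes. The only member with an unadjusted p under 0.05 in the peritoneal against spleen test was Anxa6, beside 4.89% of all tested genes. Its peritoneal difference was larger than its spleen one by 0.34 on the log2 scale (unadjusted p = 0.0487, adjusted p = 0.998 in edgeR).

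The controls alone show how the genes were distributed over the tissues. Their summed B cell markers were also highest in peritoneal cavity and lowest in thymus, without overlap. The part of B cell RNA in the tissue differences was not tested. In peritoneal cavity against thymus, S100a6 and S100a11 were higher and passed, beside 2.47% of all tested genes. S100a11 differed by 1.17 on the log2 scale (SE 0.15, adjusted p = 0.0018 in edgeR), with 234 and 247 CPM against 91.2 to 121 CPM, and with its copies added by 1.16 (adjusted p = 0.00151). S100a6 differed by 1.90 (SE 0.37, adjusted p = 0.0197 in edgeR), with 183 and 313.5 CPM against 81.8, 66.7 and 51.3 CPM. That call was lost without thymus control 2 (adjusted p = 0.0619), thymus control 3 (0.0789) or peritoneal control 2 (0.198). The estimates of Anxa1 (3.30, SE 1.29) and Lgals3 (2.68, SE 1.04) were larger and did not pass (adjusted p = 0.26 and 0.251). Without peritoneal control 2 the Lgals3 estimate was -0.37, so that library decides its direction. For the 10 members the median was 0.864 and 9 were positive, beside a median of -0.03 and 47.7% positive over all tested genes.

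In thymus against spleen, S100a11 was lower by the test, with a log2 difference of -0.73 (SE 0.14, adjusted p = 0.0414 in edgeR), beside 0.603% of all tested genes called. Its 3 thymus controls lay below the 3 spleen controls. This call was close to the threshold: it was lost in 14 of the 15 fits that left out 1 library, all but the one without spleen control 2, with adjusted p from 0.0291 to 0.155. With the copies added it was -0.69 (adjusted p = 0.0472). The median of the 10 members was -0.399, and 2 of them (Anxa2 and Anxa5) were positive, beside -0.00205 and 49.4% over all tested genes.

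In peritoneal cavity against spleen no member passed in edgeR, beside 0.792% of all tested genes. An unadjusted p under 0.05 was seen for 3 members, beside 10.6% of all tested genes. limma-voom called none (0.814% of all genes), and DESeq2 called S100a6 and Anxa2 (4.94% of the 15681 genes to which it gave an adjusted p). The largest estimates were Anxa1 at 2.53, Lgals3 at 1.74, S100a6 at 1.15 (adjusted p = 0.247 in edgeR) and Anxa2 at 0.91 (adjusted p = 0.238), and the members' median was 0.644, beside -0.0288 over all tested genes. Without peritoneal control 2, the library rich in macrophage markers, Lgals3 turned to -1.30, Anxa2 was at 0.37 and S100a6 at 0.71, while Anxa1 was at 2.23. Anxa5 (-0.12) and Anxa6 (-0.01) were near 0, and the sign of Anxa6 turned under the size factors of DESeq2 (0.0025). Both peritoneal controls lay above every spleen control for S100a4, S100a6, S100a11, Anxa1 and Anxa2. For Anxa2 this was narrow, with 97.05 and 185 CPM against at most 94.9 CPM. The share of all tested genes with such a separation between tissues was not counted. The dDC groups gave the same order of tissues for S100a11, with means of 437 CPM ± 38.9 (SD, n = 2) in peritoneal cavity, 275 CPM ± 17.7 (n = 3) in spleen and 171 CPM ± 1.78 (n = 2) in thymus.

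**Figure D5:**
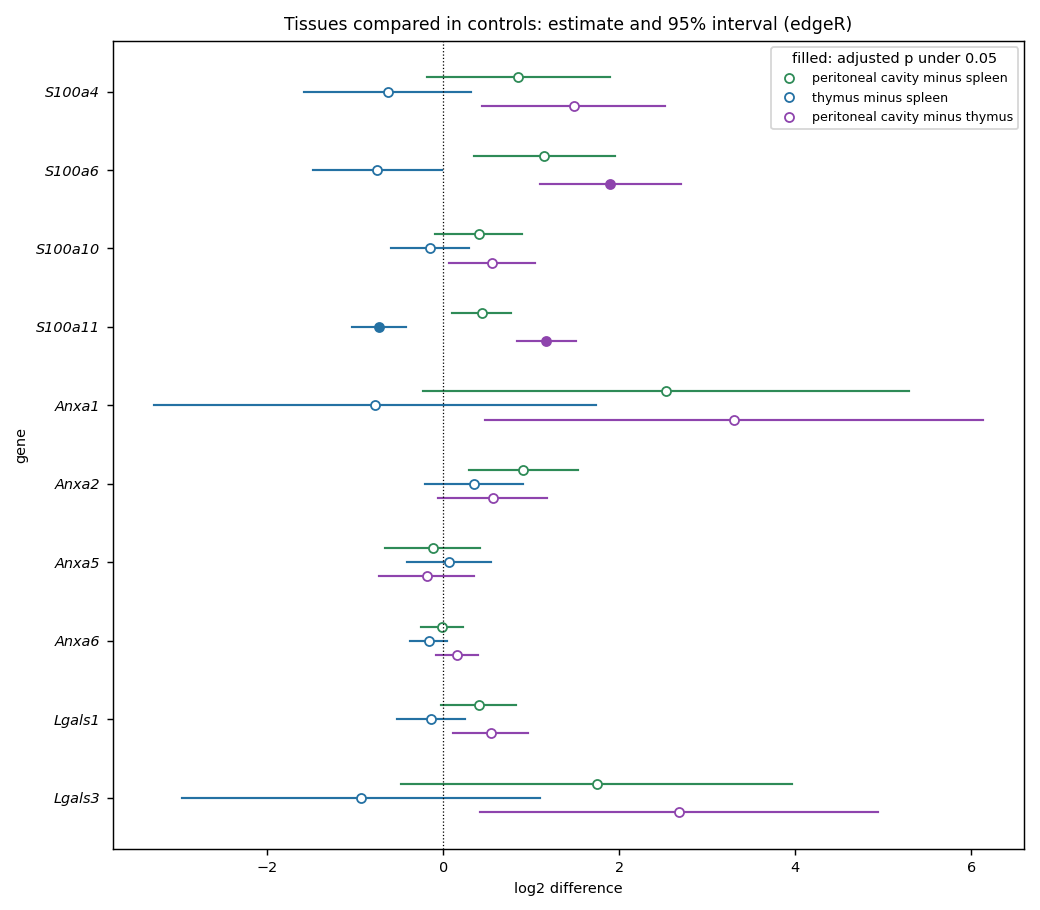
Estimated log2 differences between tissues in the control libraries with 95% intervals, peritoneal cavity minus spleen (green), thymus minus spleen (blue) and peritoneal cavity minus thymus (purple); a filled point marks an adjusted p under 0.05. Filled points are S100a11 in both comparisons with thymus and S100a6 in peritoneal cavity minus thymus.

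Other genes of the 3 families are given for comparison, with no test against the 10. They came from a list that is not complete, since S100a2 is missing from it. Of 28 listed S100, annexin and galectin genes, 27 were in the table and 19 were tested, and none passed in the averaged dDC comparison. Of these, 8 estimates were positive and 2 had an unadjusted p under 0.05, with a median log2 difference of -0.158, beside the 47.9%, 9.31% and -0.0197 of all tested genes. S100a13, another small S100 gene, had the lowest adjusted p of them. It had means of 106 CPM ± 27.9 (SD, n = 3) and 133 CPM ± 13.2 (n = 3) in spleen, 102 CPM ± 7.65 (n = 3) and 137 CPM ± 6.20 (n = 2) in thymus, and 131.5 CPM ± 21.9 (n = 2) and 194 CPM ± 33.1 (n = 2) in peritoneal cavity, each time control before dDC. Its averaged log2 difference was 0.44 (SE 0.12, adjusted p = 0.269 in edgeR). Lgals9, a galectin that binds Tim-3, gave 0.13 (SE 0.09, adjusted p = 0.687). Lgals4, which encodes galectin-4, lay the other way, at -0.55 (SE 0.27, adjusted p = 0.577 in edgeR). It was at 56.3, 50.7 and 37.7 CPM in spleen controls and at 25.8, 29.4 and 33.1 CPM in spleen dDC libraries, and at 52.9, 59.0 and 60.7 CPM and at 40.5 and 36.7 CPM in thymus. Its dDC libraries lay below every control in both tissues, and in peritoneal cavity, where controls were at 63.7 and 12.5 CPM, they lay between them, at 32.8 and 26.9 CPM. How many of all tested genes lay below in this way was not counted. Others that reached a group mean of 5 CPM were S100a1, S100a8, S100a9, Anxa4, Anxa7, Anxa11, Lgals7, Lgals8 and Lgalsl. S100a8 and S100a9, the neutrophil and monocyte pair, were at 0 in some libraries and at up to 23.6 CPM and 17.8 CPM in others of the same tissue.

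Genes for known binding partners were taken from a second list of 20, of which 19 were tested. None passed in the averaged dDC comparison, 16 estimates were positive and 6 had an unadjusted p under 0.05, with a median of 0.276, to be read beside the same shares of all tested genes. The examples that follow were picked after their values were seen. Ahnak, a giant scaffold protein that the S100A10 and annexin A2 complex holds at the membrane, gave 0.37 (SE 0.08, adjusted p = 0.156 in edgeR). Lgals3bp, a secreted galectin-binding glycoprotein, gave 0.49 (SE 0.10, adjusted p = 0.156), and Cacybp, a binder of S100A6, gave 0.55 (SE 0.18, adjusted p = 0.351). Between tissues, Ahnak was higher in peritoneal controls, at 1086 CPM ± 183 (SD, n = 2), than in spleen controls, at 444 CPM ± 20.6 (n = 3), and thymus controls, at 400.1 CPM ± 50.3 (n = 3). The log2 differences were 1.29 (adjusted p = 0.00174 in edgeR) and 1.44 (adjusted p = 0.000257). Bsg, which encodes basigin, was lower in peritoneal than in thymus controls, with a log2 difference of -1.85 (adjusted p = 0.024 in edgeR). No other gene of this list passed in a tissue comparison.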

How the data were processed

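The values are raw counts that the authors deposited as 1 table of genes by libraries. Per the submitters' processing notes, it was made with bcl2fastq 2.19.1, GSNAP and featureCounts 1.6.0 on mm10. For strand and multi-mapping, the setting is not given in the sources used here. Per the labels' protocols, cDNA came from a poly-dT primer with template switching and libraries from chemistry that does not mark strand. Reads were not collapsed to molecules by any identifier named there. Anxa2 shares 98 of 3731 exon bases (2.63%) with the opposite-strand Gm16144, which had at most 38 reads.

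Genes were filtered with filterByExpr and tested in edgeR 4.0.16 with TMM factors and 1 quasi-likelihood model of 6 group means (9 residual degrees of freedom, two-sided). Standard errors were taken from the estimate and its F. CPM and RPKM were computed here from the TMM-scaled counts and exon lengths. The 92 spike-in rows were left out. Symbols matched 45143 of 45706 identifiers. The edgeR step was tested on simulated data. Alternatives used other size factors, filters, DESeq2 1.42.0, limma-voom 3.58.1, a block and libraries left out. The 10 genes, the lists and the tests were chosen with earlier results of these data known. Named beside the 10 were other genes of the 2 lists past the threshold or at 5 CPM or more in some group, as far as a result turned on them. Copies were searched with BLAST at 90% identity over 100 bases or more.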

Additional observations from a re-analysis of the deposited data

How the results depend on the processing

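The size factors of DESeq2, a filter of at least 5 CPM in 2 libraries and, added after seeing the data, S100a11 with its copies changed no member count. Other settings moved some, in each case with the cause not tested. In the averaged dDC comparison 3 members passed with no filter (S100a10 at adjusted p = 0.0241 and Lgals1 at 0.0272 besides S100a11, edgeR, 39 of all genes). With DESeq2 5 passed (S100a4, S100a10, S100a11, Anxa6 and Lgals1, 384 of all genes). When only the spleen and thymus differences were averaged, in the fit of all 15 libraries, 0 passed (S100a11 0.65, adjusted p = 0.172 in edgeR). With 1 library left out the count changed in 4 fits, and it was 0 without spleen dDC library 1. DESeq2 called 1 member in spleen, 1 in thymus and 3 in peritoneal cavity, and 2 in peritoneal cavity against spleen. limma-voom called 0 in thymus against spleen (S100a11 -0.75, adjusted p = 0.0643). With 1 library left out, 0 to 1 member passed in the peritoneal dDC comparison (Lgals1 1.27 without peritoneal control 1, adjusted p = 0.0398 in edgeR, with 146 of all genes), 0 to 1 in peritoneal cavity against spleen (Anxa2 1.30 without the same library, adjusted p = 0.0483, and 0.37 without peritoneal control 2), 0 to 1 in thymus against spleen and 1 to 2 in peritoneal cavity against thymus. A group left with 1 library was assumed to vary like the others.

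A replicate block of neighbouring library numbers left 0 members in the averaged comparison (S100a11 0.69, adjusted p = 0.227 in edgeR, 4 residual degrees of freedom instead of 9). It turned Anxa1 in thymus to 0.64, Anxa2 in peritoneal cavity to 0.060 and Lgals3 in peritoneal cavity to 0.097, and changed no other call. The labels do not pair the libraries. Neighbours' deviations from their group means correlated at -0.005 to 0.102 over 7 pairs, 2 of them over 0.1. Those 2 are the peritoneal pairs. With 2 libraries a group the deviations are opposite, so both pairs must give the same value and count as 1. The tissue comparisons could not be fitted with the block, since each block lies in 1 tissue.

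Estimates that changed sign did so near 0 or in Anxa1 and Lgals3, none of them past the threshold. limma-voom turned Lgals3 to 0.21 in the average, 0.31 in thymus and 0.33 in peritoneal cavity, Anxa1 in thymus to 0.22 and Anxa2 in peritoneal cavity to 0.10. The DESeq2 size factors turned Anxa6 in peritoneal cavity against spleen to 0.0025 in edgeR, and DESeq2 itself to 0.0023. With 1 library left out, the averaged dDC differences ran from -0.89 to 0.84 for Anxa1, from -0.093 to 0.22 for Anxa2, from -0.034 to 0.18 for Anxa5 and from -0.69 to 0.65 for Lgals3. In thymus they ran from -4.61 to 0.60 for Anxa1, from -0.26 to 0.12 for Anxa5 and from -1.075 to 0.46 for Lgals3. In spleen they ran from -0.031 to 0.25 for Anxa5, from -0.33 to 0.36 for Lgals3 and from -0.076 to 0.38 for S100a6. In peritoneal cavity they ran from -0.40 to 0.52 for Anxa2, from -0.13 to 0.52 for Anxa5 and from -1.86 to 2.09 for Lgals3. Peritoneal cavity against spleen ran from -0.49 to 0.17 for Anxa5, from -0.076 to 0.074 for Anxa6, from -1.30 to 2.65 for Lgals3 and from -0.0013 to 0.71 for S100a10. Thymus against spleen ran from -0.11 to 0.20 for Anxa5 and from -0.28 to 0.015 for S100a10. Peritoneal cavity against thymus ran from -0.55 to 0.11 for Anxa5 and from -0.37 to 3.59 for Lgals3. The S100a11 estimates ran from 0.68 to 0.77 in the averaged dDC comparison.

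With 2 or 3 libraries a group and a median coefficient of variation of 0.551 over the tested genes, these comparisons resolve small differences only for abundant genes. The limit weighs most on S100a4, Anxa1 and Lgals3, which lay under 20 CPM in most libraries.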

Other observations

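For each of the 10 genes, the genes with the most similar profile over the 6 group means were looked up among 10594 tested genes with at least 5 CPM on average. Likeness was the root mean square difference of the centred log2 values (CPM plus 0.1). No test was made. S100a10 and Lgals1, the annexin A2 partner and galectin-1, were the closest pair among the members, at 0.0618 on the log2 scale. The same gene outside the list, Prr13, was nearest to both, at 0.088 for S100a10 and 0.0994 for Lgals1. S100a10 and S100a11, neighbours on chromosome 3, were at 0.238.

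S100a11 was nearest to its own copy Gm12854 (0.0384), with Idh1, the cytosolic isocitrate dehydrogenase, next at 0.148. S100a4 was nearest to Itgb1, which encodes integrin beta-1, at 0.0998. Next for S100a4 was Gm7665, a copy of S100a11, at 0.212. The smallest distance of all was that of Anxa5 to Mien1, at 0.0182. Anxa6 was nearest to Arpc3, a subunit of the actin-nucleating Arp complex, at 0.0414. How small a distance unrelated genes reach among so many candidates was not counted. S100a6 was nearest to the cell cycle phosphatase gene Cdc25b (0.104) and Anxa2 to Mprip (0.0769), which encodes a binder of myosin phosphatase. Lgals3 and Anxa1 had no close match: their nearest genes were Ankrd29 at 0.255 and Crip2 at 0.362.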
